A study of Sus scrofa with 12 samples.

Results

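Subcutaneous fat of the mid-back was compared between 9 d old piglets of the Guangdong small-eared breed (GS) and of the Yorkshire breed (YK), across all genes with enough counts to be tested. The comparison rests on 6 of the 12 RNA-seq libraries of the study, 3 of each breed, written here GS_9d and YK_9d. The other 6 libraries are from the same breeds at 80 d (GS_80d and YK_80d). All samples are entered as wild type, and the labels put adipocyte as the cell type although whole adipose tissue was extracted. They give neither the sex nor the litter of the animals and do not say that the samples came from separate animals, so p-values measure the spread between samples, which may be technical.

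Piglets are born with little fat, and their back fat fills in the first weeks of life, when adipocytes take up fatty acids from milk and begin to make their own. Adipocytes build fatty acids from acetyl-CoA and store them as triacylglycerol in lipid droplets, and they also burn branched-chain amino acids as a source of that carbon. The tissue further holds progenitors, vessels, nerves and immune cells, and it lies between skin and muscle, from which a dissected piece can carry transcripts. Chinese indigenous pigs are known as fatter than the lean Yorkshire.

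The values of the deposited table were treated as estimated counts. The unscaled totals of the 6 libraries ran from 48491515 to 60993349 units, at 3.72 units per sequenced fragment. Of 15425 genes tested, 12779 have a symbol. Across genes, Spearman correlations were 0.954 to 0.967 between libraries of a breed and 0.950 to 0.964 between breeds. Markers of fat cells were abundant in each library: ADIPOQ, the hormone adiponectin, stood at 2545, 4149.6 and 8528 CPM (the usual count scaled to library size, here also by TMM factors) in YK_9d replicates 1, 2 and 3 and at 5951, 11758 and 7082 in GS_9d replicates 1, 2 and 3. Values are given in this order throughout.

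Transcripts of neighbouring tissues were uneven between the libraries. Genes of keratinocytes and hair follicles took 0.0159%, 0.0219% and 0.0384% of the counts in YK_9d and 0.0133%, 0.0114% and 0.0143% in GS_9d. The breeds do not overlap in this share, but the exact permutation test gave p = 0.1 (two-sided), the smallest that 3 against 3 libraries allow, and on scaled CPM the breeds overlap (p = 0.2). Without the 3 most abundant members (DSP, ODC1 and SBSN) the share was 0.00306%, 0.0102% and 0.0247% in YK_9d against 0.00131%, 0.00135% and 0.00137% in GS_9d. Of the 31 skin genes tested, 30 were highest in a YK_9d library (21 in replicate 3, 8 in replicate 2, 1 in replicate 1), and 8 were at 0 in all GS_9d libraries. Some of this list carries hair structure, such as KRT71, a keratin of the inner root sheath, at 1.12, 7.61 and 13.7 CPM in YK_9d and at 0 in GS_9d, at least 111-fold lower against a floor of 3 fragments over the group (adjusted p = 0.0449); it kept its call in 1 of 6 fits that each left out 1 library (up to 0.169). KRT15, a keratin of basal skin cells, read 0.184, 2.02 and 5.69 CPM in YK_9d and 0, 0 and 0.108 in GS_9d (adjusted p = 0.163).

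**Figure D1:**
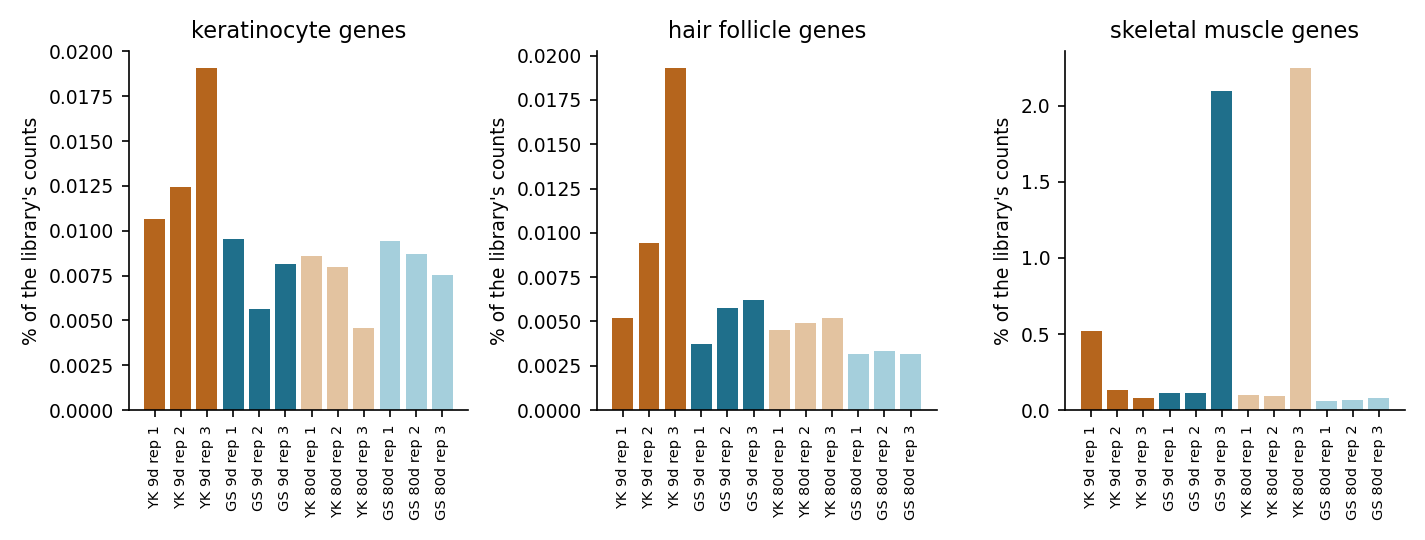
Share of each library's counts in the lists of keratinocyte (left), hair follicle (middle) and skeletal muscle genes (right), in percent on linear axes that differ between panels; each bar is 1 library, dark for 9 d and pale for 80 d, brown for YK and blue for GS. YK_9d replicate 3 has the tallest bars for both skin lists, and muscle genes reach 2.10% in GS_9d replicate 3 and 0.521% in YK_9d replicate 1.

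Skeletal muscle genes took 0.521%, 0.132% and 0.0816% of the counts in YK_9d and 0.113%, 0.112% and 2.10% in GS_9d (exact permutation p = 0.7). The difference turned from 0.530 to -0.132 percentage points without GS_9d replicate 3. All 36 muscle genes tested were highest in GS_9d replicate 3, and none passed by edgeR (1 with an unadjusted p under 0.05; DESeq2 called 1 and limma-voom 0). ACTA1, the actin of muscle fibres, shows the pattern, with 1443, 1.71 and 2.11 CPM in YK_9d and 1.38, 54.1 and 6185 in GS_9d.

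At 9 d, 157 genes (1.02% of those tested) passed an adjusted p of 0.05 by edgeR's quasi-likelihood test, 101 higher in GS (0.655%) and 56 lower (0.363%). At an unadjusted p under 0.05 there were 2220 of the 15425. DESeq2 called 922 of the 18969 genes with any count, which include genes that its own filter can leave without an adjusted p. Limma-voom called 120 of 15425. The list counts below are to be set against these totals. They cover only genes among the 15425, so the DESeq2 total is of a wider set. Below, a gene is said to pass only by edgeR's test, and counts by DESeq2 and limma-voom are named as such. The breeds did not overlap for 2850 genes (18.5%), among them all 157. The median size of the 157 differences was 1.82 on the log2 scale and the smallest 0.84, while the median difference over all genes was 0.01. In simulated libraries with the same spread, 17% of 2-fold and 73% of 4-fold changes were recovered, so smaller differences were mostly not detectable at this depth and number. The changes were planted only in genes above a floor of expression. Genes were drawn independently, without effects shared within a library such as muscle transcripts, so the rates hold for that setting only.

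The count of calls moved with single libraries. It was 41, 5 and 284 without YK_9d replicates 1, 2 and 3, and 35, 17 and 107 without GS_9d replicates 1, 2 and 3. Of these calls 29, 5 and 115, and 31, 16 and 65, were among the 157. Of the 157, 4 passed in all 6 of these fits (KIT, LBR, PFKFB1 and ENSSSCG00000037322, an ID with no symbol), 8 in 5 of them, and 29 in none. All 157 kept their sign in each of the 6, an outcome fixed beforehand, because the breeds did not overlap in any of the 157. Without YK_9d replicates 2 and 3, the libraries with the most skin transcripts, the lone YK_9d library is assumed to vary like other groups. There, all 157 kept their sign, again fixed by breeds that did not overlap, and their median difference was 1.88 in the original direction. With the level of skin transcripts as a covariate none passed by edgeR (1058 with an unadjusted p under 0.05), 156 of 157 kept their sign, and the median difference was 2.05. That level, a mean log2 CPM, was -0.10, 1.43 and 2.37 in YK_9d and -2.17, -2.36 and -1.90 in GS_9d. As the breeds do not overlap in it, breed and skin level cannot be told apart in this fit, and its differences are extrapolated. Without the 3 libraries with muscle transcripts 39 passed, 25 of them among the 157, and the median difference of the 157 was 1.81. Among the 157 are 1 gene of the skin lists (KRT71) and none of the skeletal muscle list. DMD, dystrophin, and ITGA7, an integrin, which muscle fibres also express, are outside that list and were higher in GS, at 43.9, 44.4 and 36.1 and 110.03, 184 and 123 CPM in YK_9d and 89.5, 97.998 and 95.8 and 283, 411 and 396 in GS_9d (1.19 ± 0.19 and 1.39 ± 0.27, adjusted p = 0.0234 and 0.0383), and they kept their calls in 2 and 0 of the 6 fits.

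The receptors KIT and TSHR differed in opposite directions. KIT, the receptor of stem cell factor on melanocytes and mast cells, whose variant alleles give Yorkshire and other white pigs their coat colour, stood at 77.5, 63.2 and 61.97 CPM in YK_9d and 9.25, 6.67 and 9.47 in GS_9d. The difference, GS minus YK, was -2.997 ± 0.34 (log2 ± SE throughout; adjusted p = 0.00748). The gap between the breeds was wide against the narrow spread within each, and KIT kept its call in 6 of 6 fits that left out 1 library. KIT was the only 1 of 9 melanocyte genes and of 12 mast cell genes tested that passed. DESeq2 called 2 melanocyte genes, both lower in GS, and 2 mast cell genes, 1 higher and 1 lower. The medians of the lists were -0.04 and -0.08. The ligand of KIT, KITLG, was measured at 61.9, 57.5 and 85.96 CPM in YK_9d and 56.1, 58.1 and 67.9 in GS_9d. The melanocyte protein PMEL was at 0.291, 0.646 and 1.52 CPM in YK_9d and 0.192, 1.63 and 1.47 in GS_9d. In bulk tissue, fewer cells of a type and less RNA per cell cannot be told apart.

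TSHR, the thyrotropin receptor, through which the pituitary hormone also stimulates lipolysis in fat cells of human newborns, was at 1.16, 1.04 and 1.95 CPM in YK_9d and 11.1, 17.3 and 14.3 in GS_9d (3.36 ± 0.42, adjusted p = 0.00748). It kept its call in 5 of 6 such fits and lost it (adjusted p = 0.0516) without YK_9d replicate 2. VDR, the vitamin D receptor, was lower in GS, at 20.4, 15.1 and 15.04 CPM in YK_9d and 2.37, 1.67 and 1.96 in GS_9d (-3.07 ± 0.57, adjusted p = 0.0347), and kept its call in 1 of 6 such fits (up to 0.127). These were the 2 of 35 genes of thyroid, steroid and retinoid handling that passed by edgeR, and the list's median was 0.36. DESeq2 called 7 higher and 3 lower in GS, and limma-voom 2 and 1. RARA, a retinoic acid receptor, and RDH5, a retinol dehydrogenase, read -1.08 ± 0.27 and 2.42 ± 0.62 without passing (adjusted p = 0.0801 and 0.0933). RARA passed in 1 of 6 fits, that without YK_9d replicate 3 (-1.34, adjusted p = 0.0255), and not in the others (up to 0.2955).

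SLCO1A2, an organic anion transporter that in humans also carries thyroid hormone, went from 0.826, 0.542 and 0.547 CPM in YK_9d to 13.5, 21.5 and 16.5 in GS_9d (4.74 ± 0.86, adjusted p = 0.0347). IL17B, a cytokine, was lower in GS, with 13.8, 11.8 and 27.4 CPM in YK_9d and 2.74, 2.24 and 2.42 in GS_9d (-2.84 ± 0.39, adjusted p = 0.0127). The breeds lay apart in both genes. IL17B lost its call without GS_9d replicate 2 (adjusted p = 0.0673), and SLCO1A2 without any 1 of the 6 libraries (up to 0.155).

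SLC6A4, the serotonin transporter, stood at 42.8, 54.9 and 43.8 CPM in YK_9d and 4.85, 7.68 and 11.4 in GS_9d (-2.56 ± 0.42, adjusted p = 0.0257), and kept its call in 3 of 6 fits. It was the only 1 of 20 genes of neurotransmitter and amine handling that passed. GAREM2, an adaptor of growth factor receptors, stood at 10.7, 15.3 and 12.2 CPM in YK_9d and 1.97, 2.95 and 2.44 in GS_9d (-2.38 ± 0.32, adjusted p = 0.00938), and kept its call in 5 of 6 fits (adjusted p = 0.0642 without YK_9d replicate 2). TNFRSF12A, the receptor of the cytokine TWEAK, and GFRA2, a co-receptor of the neurotrophic factor neurturin, were lower in GS (-1.80 ± 0.37 and -2.01 ± 0.42, both adjusted p = 0.0449), and each kept its call in 1 of 6 fits (up to 0.155 and 0.171).

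**Figure D2:**
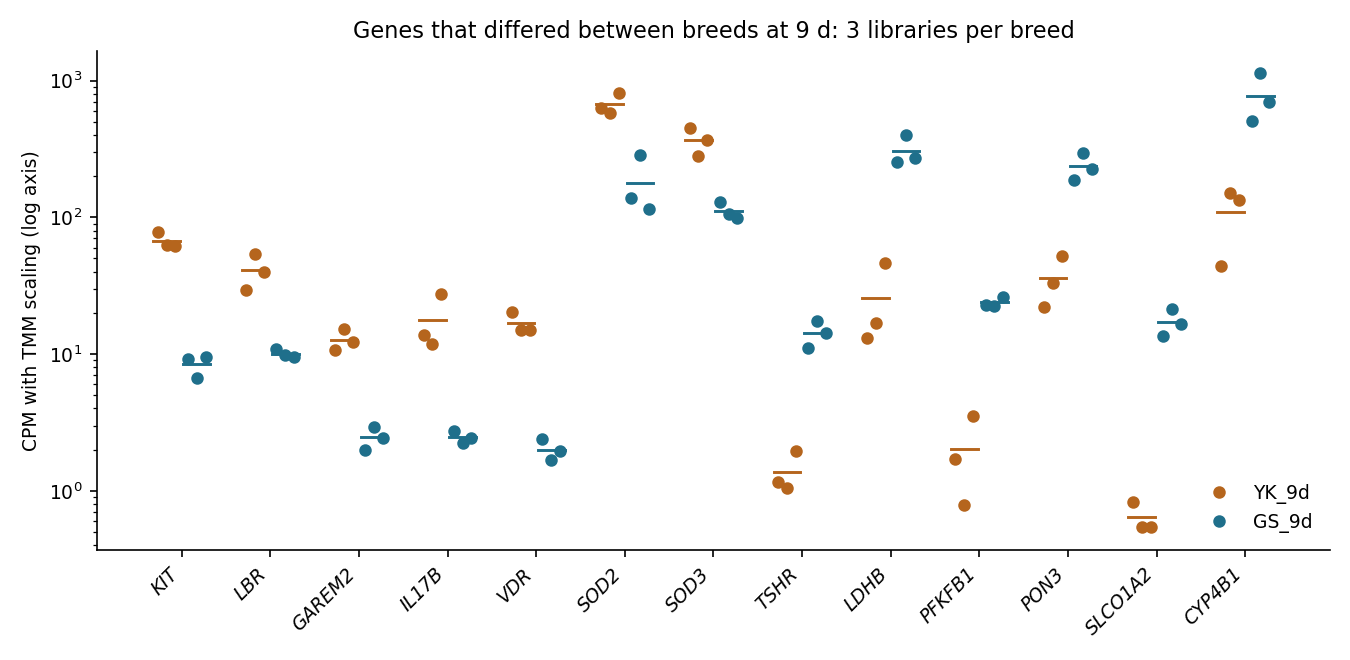
CPM with TMM scaling on a log axis for 13 genes that passed at 9 d; each point is 1 library, the bar the mean of 3, brown for YK_9d and blue for GS_9d. KIT, LBR, GAREM2, IL17B, VDR, SOD2 and SOD3 are lower in GS_9d and the other 6 genes higher, with no overlap between breeds.

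Of 36 genes of glycolysis and glucose uptake 2 passed, both higher in GS, and the list's median was 0.33. By library, the median of log2(CPM + 1) minus each gene's mean was -0.17, -0.25 and -0.08 in YK_9d and -0.22, 0.18 and 0.41 in GS_9d, so the breeds overlap. The list took most counts, 1.28%, in GS_9d replicate 3, the library with the most muscle transcripts. The part of muscle in this was not tested. DESeq2 called 3 higher and 1 lower in GS, and limma-voom 2 higher. LDHB, the subunit of lactate dehydrogenase that prevails in oxidative tissues, rose from 13.1, 16.97 and 46.7 CPM in YK_9d to 253, 398 and 269 in GS_9d (3.58 ± 0.44, adjusted p = 0.00748). The lowest GS library was above 5 times the highest YK library. PFKFB1, which makes and removes fructose 2,6-bisphosphate, the main allosteric switch of glycolysis, went from 1.71, 0.792 and 3.53 to 22.8, 22.6 and 26.3 CPM (3.57 ± 0.47, adjusted p = 0.00938). GBE1, which branches glycogen, was the only 1 of 19 genes of glycogen and gluconeogenesis that passed (1.66 ± 0.33, adjusted p = 0.0428). PFKFB1 kept its call in 6 of 6 fits without 1 library, LDHB in 5 of 6 (adjusted p = 0.0516 without YK_9d replicate 2) and GBE1 in 2 of 6 (up to 0.161).

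Of 23 genes of fatty acid synthesis 3 passed by edgeR, all higher in GS, and the list's median was 0.62. DESeq2 called 6 higher and 2 lower in GS, and limma-voom 3 higher. IDH1, a cytosolic source of NADPH, was at 126, 231 and 284 CPM in YK_9d and 463, 741 and 728 in GS_9d. ELOVL5, which elongates polyunsaturated fatty acids, was at 103, 199.5 and 235 and 389, 720.3 and 453. ACSS2, which makes acetyl-CoA from acetate, was at 47.1, 54.8 and 61.1 and 130.1, 129.99 and 95.2. The differences were 1.59 ± 0.30, 1.54 ± 0.31 and 1.12 ± 0.20, with adjusted p = 0.0347, 0.0449 and 0.0317. FASN, fatty acid synthase, had groups that did not overlap, with 129, 301 and 219 CPM in YK_9d and 691, 694 and 749 in GS_9d, but did not pass (1.72 ± 0.53, adjusted p = 0.146). SCD, the main desaturase, read 10.4, 35.2 and 50.7 and 25.6, 37.9 and 94.9 CPM, and the breeds overlap. FADS1, a desaturase of polyunsaturated fatty acids, read -1.38 ± 0.31 (adjusted p = 0.0623). It passed in 1 of 6 fits without 1 library, that without YK_9d replicate 3 (-1.66, adjusted p = 0.022), and not in the others (up to 0.231). IDH1 and ACSS2 each kept their call in 2 of 6 fits without 1 library and ELOVL5 in 1 (up to 0.118, 0.114 and 0.143).

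Of 13 genes of triacylglycerol synthesis 1 passed, DGAT2, which adds the last fatty acid, at 104, 258 and 383 CPM in YK_9d and 618, 1938 and 1317 in GS_9d (2.38 ± 0.49, adjusted p = 0.0449). CIDEC, a droplet protein that fuses lipid droplets in white fat, was at 148, 214 and 268 and 493, 1124 and 597 CPM (1.81 ± 0.38, adjusted p = 0.0449). In both genes the libraries of each breed ran over a wide range, more than 3-fold for DGAT2 in either breed, without overlapping between breeds. CIDEC was also the only 1 of 19 genes of white adipocyte identity and of 13 lipid droplet genes that passed. DESeq2 called 2 and 1 of these lists and 2 of triacylglycerol synthesis. The medians of the 3 lists were 0.50, -0.26 and 0.10 in this order. Of the lipid droplet genes 8 had negative and 5 positive differences. Groups did not overlap for 7 of them (53.8%, against 18.5% of all genes tested), 5 lower and 2 higher in GS. DGAT2 kept its call in 2 of 6 and CIDEC in 1 of 6 fits without 1 library (up to 0.169 and 0.161). PLIN1, which coats droplets, PPARG, the master regulator of adipocytes, ADIPOQ and LEP, the hormone leptin, read 0.89 ± 0.32, 0.66 ± 0.28, 0.70 ± 0.41 and 0.94 ± 0.85 (adjusted p = 0.218, 0.291, 0.481 and 0.699). PLIN1 passed in 1 of 6 fits without 1 library, that without YK_9d replicate 3 (1.28, adjusted p = 0.0492), and not in the others (up to 0.523). By edgeR none passed of 18 genes of lipolysis, 16 of fatty acid uptake and 24 of fatty acid oxidation, with medians of -0.07, -0.28 and 0.28, and 4, 5 and 6 had an unadjusted p under 0.05. DESeq2 called 2, 1 and 4 of them and limma-voom 0.

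Enzymes of branched-chain amino acid breakdown were listed after their values were seen, so their count is a description. Of 26 tested, 3 passed, all higher in GS (8 by DESeq2 and 3 by limma-voom, all higher in GS): ECHDC1, MCCC2 and IVD. MCCC2, a subunit of methylcrotonyl-CoA carboxylase, and IVD, isovaleryl-CoA dehydrogenase, act in leucine breakdown. ECHDC1 removes ethylmalonyl-CoA, a side product of carboxylases, and is not itself a step of branched-chain breakdown, although it is counted in the list. ECHDC1 stood at 61.4, 64.001 and 94.04 CPM in YK_9d and 179, 273 and 298 in GS_9d (1.77 ± 0.28, adjusted p = 0.0245). MCCC2 stood at 37.01, 43.6 and 72.4 and 147, 185 and 139 (1.62 ± 0.27, adjusted p = 0.0269), and IVD at 45.8, 43.5 and 75.8 and 134, 192 and 142 (1.50 ± 0.27, adjusted p = 0.0317). In each, YK_9d replicate 3 was the YK library closest to GS. Of the 26 genes 19 had positive differences (7789 of 15425 over all genes), and the median was 0.55. Groups did not overlap for 9 (34.6%, against 18.5% of all genes tested), all higher in GS. DBT, a subunit of the branched-chain dehydrogenase, and OXCT1, which uses ketone bodies, read 1.01 ± 0.24 and 1.30 ± 0.33 (adjusted p = 0.07 and 0.0801). Each passed in 1 of 6 fits, that without YK_9d replicate 3 (adjusted p = 0.0198 for either), and not in the others (up to 0.2305 and 0.26). ECHDC1 kept its call in 3 of 6 fits without 1 library, MCCC2 and IVD in 2 (up to 0.106, 0.112 and 0.120).

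**Figure D3:**
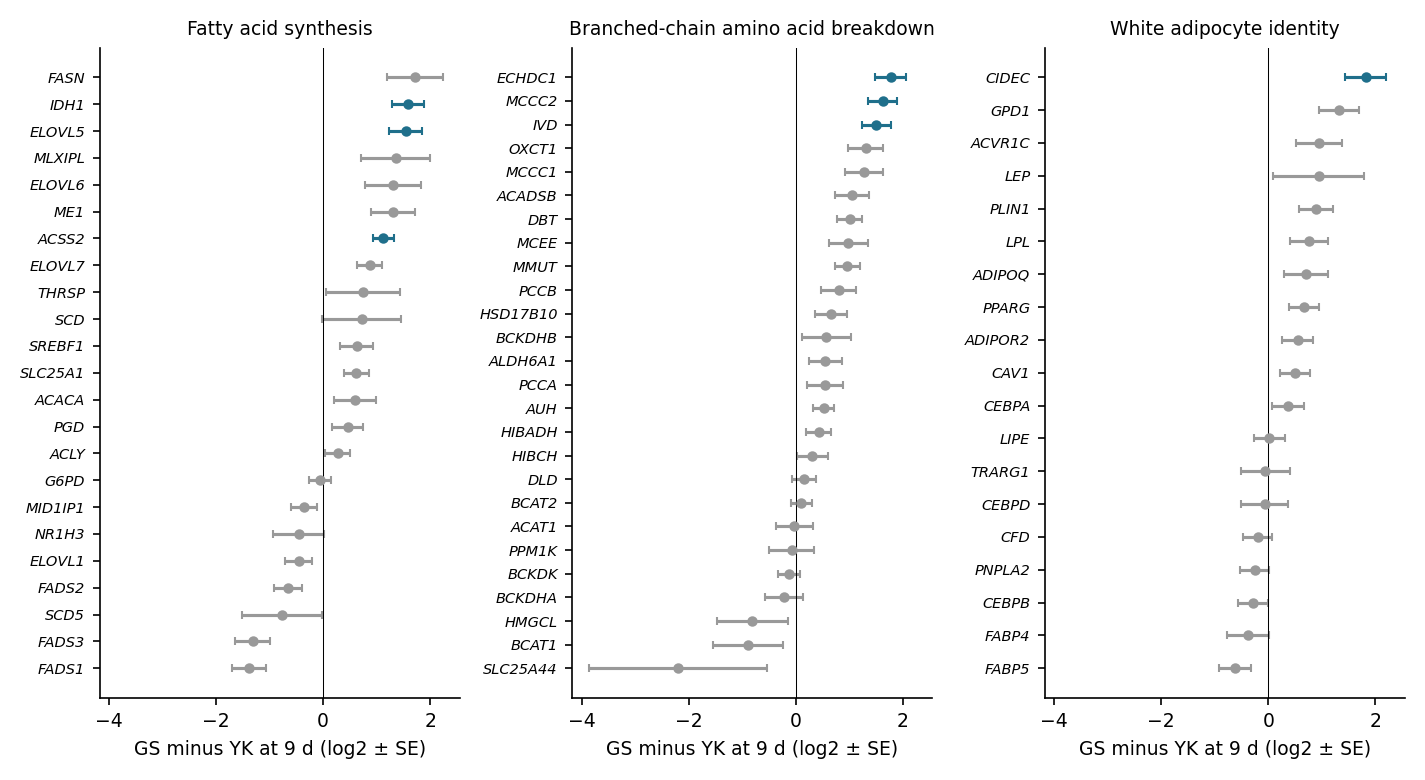
Log2 difference, GS minus YK at 9 d, with its standard error for each tested member of 3 gene lists; blue points passed an adjusted p of 0.05 and grey points did not. In fatty acid synthesis 3 genes are blue, in branched-chain amino acid breakdown 3 (with ECHDC1, not itself a step of it) and in white adipocyte identity 1, all to the right of 0.

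Other enzymes outside these lists were higher in GS as well. PON3, a lactonase, stood at 22.2, 33.1 and 51.9 CPM in YK_9d and 186, 294 and 227 in GS_9d (2.72 ± 0.39, adjusted p = 0.0155), and CYP4B1, a cytochrome that hydroxylates fatty acids, at 44.2, 150.4 and 134 and 508, 1127 and 693 (2.82 ± 0.55, adjusted p = 0.0415). DHRS7, a short-chain dehydrogenase, stood at 35.6, 42.4 and 51.3 and 128, 191 and 113 (1.74 ± 0.23, adjusted p = 0.00938). Named after their values were seen, ALDH2, the mitochondrial aldehyde dehydrogenase, ACO1, cytosolic aconitase, FAH, the last enzyme of tyrosine breakdown, and PCYOX1, which breaks down prenylcysteines, were higher by 1.66 ± 0.28, 1.53 ± 0.29, 1.47 ± 0.28 and 1.95 ± 0.32 (adjusted p = 0.0269, 0.0347, 0.0347 and 0.0264). Among these 7 genes DHRS7 kept its call in 5 of 6 fits without 1 library, PON3 in 4 of 6, and CYP4B1 in 0 of 6 (up to 0.0605, 0.0838 and 0.127). ALDH2 and PCYOX1 kept theirs in 3 and ACO1 and FAH in 2 (up to 0.112, 0.106, 0.126 and 0.133).

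SFRP1, a secreted inhibitor of Wnt signals, stood at 34.2, 63.4 and 63.2 CPM in YK_9d and 156, 261 and 148 in GS_9d and was the only 1 of 32 genes of adipokines and secreted regulators that passed by edgeR (1.81 ± 0.36, adjusted p = 0.0405). That list's median was -0.08, and DESeq2 called 3 higher and 3 lower in GS. MYOC, myocilin, read 7.89, 18.8 and 18.8 and 255, 49.7 and 201 CPM (3.48 ± 0.62, adjusted p = 0.0347), with GS_9d replicate 2 well below the other two GS libraries. Named after its values were seen, CCDC80, a secreted protein of fat matrix, read 357, 314 and 408 and 902, 1664 and 1002 CPM (1.73 ± 0.29, adjusted p = 0.0269). Of 52 matrix proteases and inhibitors 2 passed, the secreted proteases ADAMTS20 (1.76 ± 0.27, adjusted p = 0.0214) and ADAMTS18 (2.25 ± 0.44, adjusted p = 0.0383), while the list's median was -0.25 and DESeq2 called 3 higher and 4 lower in GS. By edgeR none of 36 collagen genes passed (9 with an unadjusted p under 0.05; DESeq2 called 6 and limma-voom 0). MEST, an imprinted gene whose level goes with fat cell growth in mice, was the only 1 of 17 imprinted genes that passed (1.20 ± 0.25, adjusted p = 0.0449). Of these genes, CCDC80 kept its call in 3 of 6 fits without 1 library, ADAMTS20 in 4 of 6, SFRP1 in 2 of 6, MYOC in 1 of 6, and ADAMTS18 and MEST in 0 of 6 (up to 0.114, 0.103, 0.133, 0.120, 0.106 and 0.15).

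AVIL, advillin, an actin-binding protein known from sensory neurons, was high in GS, at 19.2, 21.4 and 18.5 CPM in YK_9d and 209, 229 and 286 in GS_9d (3.62 ± 0.63, adjusted p = 0.0332). MAP6, which stabilises microtubules, went from 0.413, 0.271 and 0.405 to 5.67, 11.99 and 14.5 CPM (4.87 ± 0.84, adjusted p = 0.0317). SNCG, a synuclein present in nerve and in fat cells and named after its values were seen, read 46.6, 32.7 and 72.7 and 157, 374 and 197 CPM (2.26 ± 0.40, adjusted p = 0.0317). In each gene the breeds lay apart. By edgeR none of 18 Schwann cell and nerve genes passed (median 0.28; 2 with an unadjusted p under 0.05), nor by DESeq2 or limma-voom. AVIL lost its call without any 1 of the 6 libraries (up to 0.132), and MAP6 and SNCG kept theirs in 3 of the 6 fits.

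SOD2, the mitochondrial superoxide dismutase, stood at 633, 582 and 813 CPM in YK_9d and 137, 286 and 116 in GS_9d (-1.91 ± 0.33, adjusted p = 0.0312). SOD3, the extracellular form, stood at 446, 281 and 366 and 129.99, 106 and 99.6 (-1.70 ± 0.32, adjusted p = 0.0347). They were the 2 of 30 genes of oxidative stress defence that passed, and the list's median was 0.13. DESeq2 called 2 higher and 5 lower in GS. SOD2 kept its call in 2 of 6 and SOD3 in 1 of 6 fits without 1 library (up to 0.0892 and 0.127).

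NOS3, endothelial nitric oxide synthase, was the only 1 of 23 endothelial genes that passed by edgeR, at 215, 274 and 114 CPM in YK_9d and 74.2, 60.2 and 76.1 in GS_9d (-1.52 ± 0.30, adjusted p = 0.0428). It kept its call in 1 of 6 fits without 1 library (up to 0.169), and DESeq2 called 1 endothelial gene higher and 4 lower in GS and limma-voom 0. The summed share of endothelial genes was 0.470%, 0.561% and 0.333% of counts in YK_9d and 0.319%, 0.252% and 0.322% in GS_9d (exact permutation p = 0.1), and the part of that share in the NOS3 difference was not tested. Of 22 genes of smooth muscle and pericytes 3 passed by edgeR, all lower in GS, and the median was -0.49. DESeq2 called 1 higher and 4 lower, and limma-voom 2 lower. TAGLN, transgelin, stood at 332, 417 and 364 and 74.3, 149 and 128 CPM, ACTA2, smooth muscle actin, at 186, 398 and 340.03 and 61.5, 122 and 107, and ACTG2, the actin of gut and other visceral muscle, at 7.62, 55.1 and 38.4 and 2.67, 4.92 and 1.49. YK_9d replicate 1 was the lowest YK library for all 3. The differences were -1.66 ± 0.29, -1.67 ± 0.34 and -3.48 ± 0.71 (adjusted p = 0.0317, 0.0449 and 0.045), and each kept its call in 1 of 6 fits without 1 library (up to 0.112, 0.169 and 0.161). With the level of skin transcripts as a covariate ACTG2 turned to 0.24. Over all 17 alternative settings ACTA2 ran from -2.01 to -0.51 and TAGLN from -1.88 to -1.43.

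LBR, the lamin B receptor of the inner nuclear membrane, which also acts in sterol synthesis, was lower in GS, at 29.6, 53.9 and 39.6 CPM in YK_9d and 10.9, 9.83 and 9.47 in GS_9d (-2.03 ± 0.24, adjusted p = 0.00748). CDC45, a replication factor, was at 269, 364 and 251 and 10.4, 5.19 and 10.1 (-5.11 ± 0.72, adjusted p = 0.016) and was the only 1 of 48 cell cycle genes that passed by edgeR, against a list median of -0.07 (DESeq2 called 1 higher and 2 lower). IGFBP6, a binding protein of insulin-like growth factor II, was at 138, 192 and 77.3 and 48.2, 34.97 and 51.3 (-1.60 ± 0.31, adjusted p = 0.0405) and was the only 1 of 31 insulin and IGF genes that passed by edgeR (DESeq2 called 1 higher and 1 lower). LAMC3, a laminin chain, and MTHFD1L, of mitochondrial folate use, were lower in GS (-2.84 ± 0.48 and -2.22 ± 0.38, both adjusted p = 0.0269) and kept their calls in 2 and 1 of 6 fits (up to 0.104 and 0.109). LBR kept its call in 6 of 6 fits without 1 library, CDC45 in 3 of 6 and IGFBP6 in 1 of 6 (up to 0.0279, 0.0849 and 0.152).

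Interferon response genes were high in GS_9d replicates 1 and 2 but not in replicate 3. Cells switch these genes on when interferons, the cytokines of antiviral defence, bind their receptors. Of 42 tested 2 passed by edgeR, both higher in GS, and the median was 1.77. DESeq2 called 22, all higher in GS, and limma-voom 0. USP18, which restrains interferon signalling, stood at 31.7, 22.3 and 28.8 CPM in YK_9d and 250.4, 114 and 69.2 in GS_9d (2.39 ± 0.49, adjusted p = 0.045), and EPSTI1 at 2.13, 3.56 and 4.03 and 61.02, 28.9 and 6.04 (3.30 ± 0.65, adjusted p = 0.0449). LY6E, an interferon-induced surface protein counted in the progenitor list, read 3.61, 3.73 and 1.52 and 68.6, 42.9 and 17.7 CPM (3.86 ± 0.63, adjusted p = 0.0269). Each gene was highest in GS_9d replicate 1. MX1, an antiviral GTPase named after its values were seen, read 21.5, 18.8 and 19.3 CPM in YK_9d and 500.4, 131 and 13.9 in GS_9d (3.44 ± 1.03, adjusted p = 0.156), so that replicate 3 lay below all YK libraries. Of the 42 genes 41 were highest in GS_9d replicate 1. Replicate 1 was above all YK_9d libraries for 41, replicate 2 for 37 and replicate 3 for 9. The list took 0.177%, 0.130% and 0.115% of the counts in YK_9d and 0.810%, 0.324% and 0.115% in GS_9d (exact permutation p = 0.4). LY6E kept its call in 2 of 6 fits without 1 library, and USP18 and EPSTI1 each in 1 of 6, with adjusted p = 0.119 and 0.0979 without GS_9d replicate 1.

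**Figure D4:**
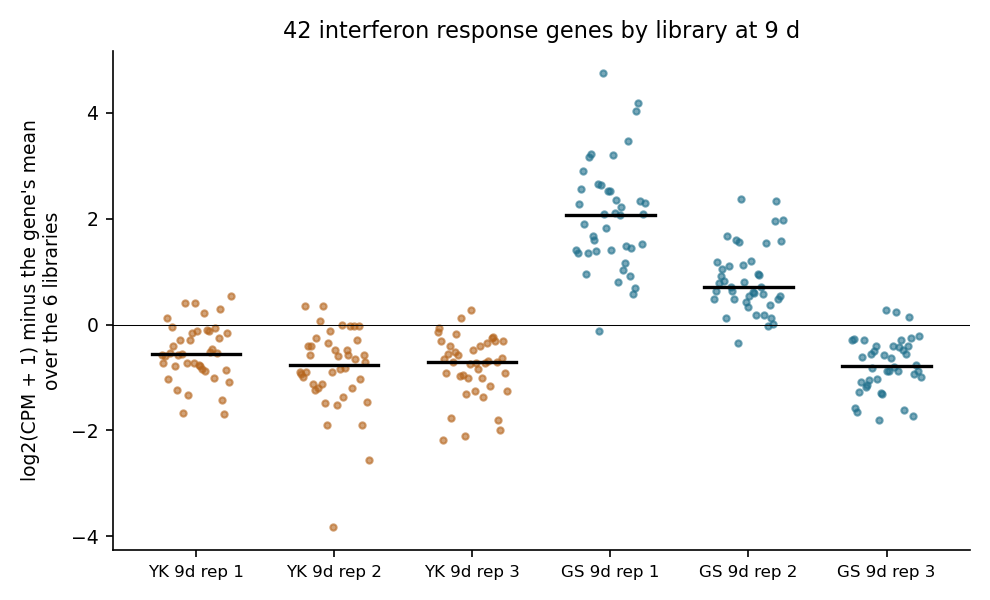
Each of the 42 tested interferon response genes as log2(CPM + 1) minus its own mean over the 6 libraries at 9 d, by library; points are genes and the black bar is their median, brown for YK_9d and blue for GS_9d. The medians are 2.08 and 0.71 in GS_9d replicates 1 and 2 and -0.78 in replicate 3, which lies with the YK_9d libraries at -0.55, -0.76 and -0.71.

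T and NK cell genes took 0.00907%, 0.00916% and 0.00785% of the counts in YK_9d and 0.0184%, 0.0257% and 0.0123% in GS_9d (exact permutation p = 0.1). That is the smallest p possible, and other lists such as B and plasma cell and erythroid genes gave it too. By edgeR none of 32 T and NK cell genes passed (11 with an unadjusted p under 0.05). DESeq2 called 5, all higher in GS, and limma-voom 0. The median was 1.53, and 15 (46.9%) had groups that did not overlap, all higher in GS. Over all genes tested this share was 18.5%, with 1378 higher and 1472 lower in GS. GNLY, a protein of cytotoxic granules, read 15.5, 10.05 and 10.5 CPM in YK_9d and 38.9, 55.9 and 16.9 in GS_9d (1.63 ± 0.55, adjusted p = 0.195). GS_9d replicate 3 was the lowest GS library in this gene, as in the interferon genes. Of genes of simple and mammary epithelium none of 24 passed by edgeR (11 with an unadjusted p under 0.05; DESeq2 called 7, all lower in GS, and limma-voom 0), 15 (62.5%, against 18.5% of all genes tested) had groups that did not overlap, all lower in GS, and the median was -3.69. Their summed share overlapped, at 0.0199%, 0.0356% and 0.0510% of the counts in YK_9d and 0.0162%, 0.0275% and 0.0242% in GS_9d (exact permutation p = 0.3). The list's median, as log2(CPM + 1) minus each gene's mean over the 6 libraries, was -0.04, 0.62 and 1.37 in YK_9d, beside -0.06, 0.62 and 1.33 for the keratinocyte list, and the part of skin transcripts in it was not tested. CLDN4, a tight junction protein of epithelia, read 46.2, 150.02 and 135 CPM in YK_9d and 2.10, 5.75 and 13.7 in GS_9d (-3.94 ± 0.96, adjusted p = 0.0899). HBB, a haemoglobin chain, read 740.4, 1687 and 757 and 350.1, 403 and 359.6 CPM (-1.52 ± 0.45, adjusted p = 0.131), and by edgeR none of 13 erythroid genes passed (3 with an unadjusted p under 0.05; DESeq2 called 2 and limma-voom 0).

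Several large groups held no gene that passed by edgeR at 9 d, nor by limma-voom: 44 cytosolic ribosomal protein genes (median 0.00), 55 nuclear genes of the respiratory chain (median 0.31), 13 mitochondrially encoded genes (-0.33), 54 elastic fibre and matricellular genes (-0.16), 22 cholesterol genes (0.14), 27 inducible heat shock genes (0.01), 30 immediate early genes (-0.20) and 69 genes of Wnt, BMP, TGF-beta, FGF and Hedgehog signalling (-0.16). At an unadjusted p under 0.05 there were 0, 9, 0, 7, 6, 4, 5 and 16 of them in this order, and DESeq2 called 0, 0, 0, 4, 3, 1, 1 and 5. Over all genes, 2220 of 15425 had such a p, and DESeq2 called 922 of the 18969 genes with any count, a wider set. Of the 21 genes of the clock list DBP, an output gene, passed by edgeR (1.39 ± 0.26, adjusted p = 0.0355; 2 of 6 fits without 1 library, up to 0.120), and DESeq2 called 3. BMAL2, a paralogue of the clock factor BMAL1 that is not in the list and was named after its values were seen, was higher in GS too (2.86 ± 0.56, adjusted p = 0.0406; 2 of 6 fits).

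The libraries at 80 d give the same breed contrast in other samples of the same fit. There 944 genes passed (6.12%). Of the 157 genes of 9 d, 84 also passed at 80 d in the same direction, 65 higher and 19 lower in GS, which is 53.5% of the calls at 9 d and 8.90% of those at 80 d. A further 1 passed in the opposite direction. The sign was the same at both ages for 142 of the 157 (90.4%), against 62.4% of all genes tested. KIT (-3.13 ± 0.34), TSHR (3.30 ± 0.41), LDHB (3.01 ± 0.43), PFKFB1 (2.02 ± 0.44), DGAT2 (2.79 ± 0.50), CIDEC (1.89 ± 0.38), SOD2 (-1.38 ± 0.33), TAGLN (-1.16 ± 0.29) and the 3 enzymes ECHDC1 (2.36 ± 0.29), MCCC2 (2.41 ± 0.28) and IVD (1.50 ± 0.27) passed at 80 d too, as did SLC6A4 (-1.48 ± 0.40, adjusted p = 0.0492). VDR, SOD3, NOS3, IGFBP6 and TNFRSF12A did not pass at 80 d, where their differences were -1.08 ± 0.54, 0.12 ± 0.31, -0.65 ± 0.30, 0.04 ± 0.31 and -0.02 ± 0.36. ENSSSCG00000037322, chosen after its values were seen, was at 2.66, 5.55 and 3.75 CPM in YK_9d and at 0 in all GS_9d libraries, and it passed at 80 d as well (adjusted p = 0.000962).

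**Figure D5:**
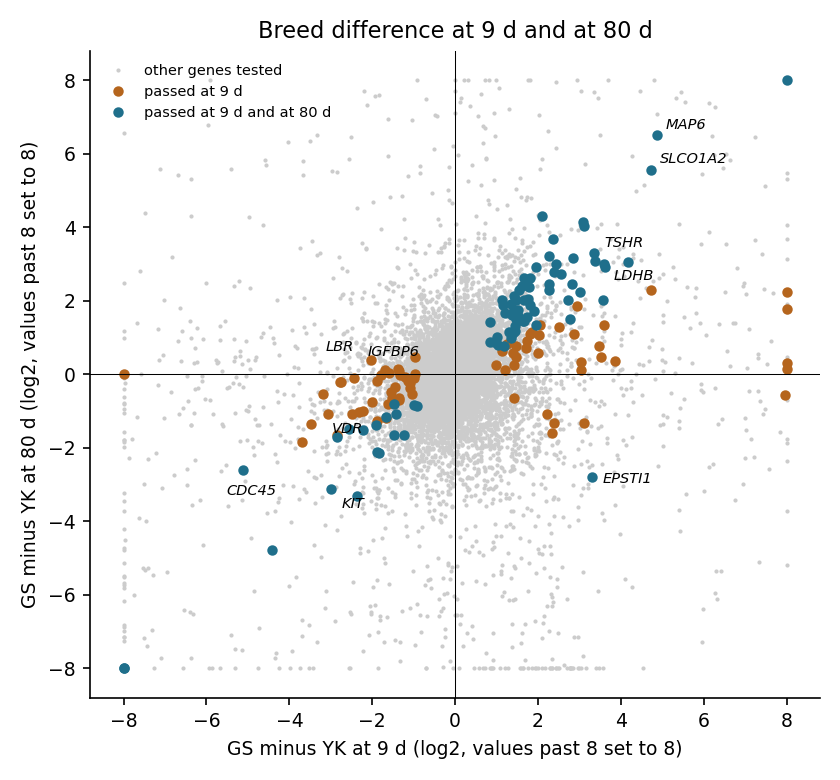
Log2 difference, GS minus YK, at 9 d (horizontal) and at 80 d (vertical) for every gene tested, with values past 8 drawn at 8; grey points did not pass at 9 d, brown points passed at 9 d only, and blue points passed at both ages. Most blue points lie in the upper right and lower left, and EPSTI1 is the blue point with opposite signs.

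The breed by age interaction, which tests whether the breed difference changed between ages, gave 10 genes (0.0648%), 2 of them among the 157. LBR was lower in GS at 9 d and read 0.39 ± 0.23 at 80 d (adjusted p = 0.318), an interaction of 2.42 ± 0.33 (adjusted p = 0.0202). EPSTI1 was higher in GS at 9 d and lower at 80 d (-2.78 ± 0.64, adjusted p = 0.0291), an interaction of -6.09 ± 0.91 (adjusted p = 0.0455). For the other 155 genes a change of the breed difference with age did not pass the test.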

How the data were processed

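Total RNA of whole adipose tissue was extracted with TRIzol and made into stranded KAPA libraries, per the labels' protocols. The authors deposited 1 table of estimated counts (expected counts) per pig Ensembl gene, with no scaling between libraries; the sources used here name neither aligner nor counting tool nor the use of strand in counting, so overlapping and antisense genes may share reads. The submitters' processing notes name the mouse build mm10, while the IDs are pig IDs, so no coordinates are printed. All deposited values are whole numbers and needed no rounding; low values cluster near multiples of 3.72 units, taken as 1 fragment. Depth per library is given in the report.

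Genes kept by filterByExpr were tested with edgeR 4.0.16 (R 4.3.3; quasi-likelihood, robust) on all 12 libraries with 4 groups, TMM factors (0.888 to 1.10) and 8 residual degrees of freedom (common dispersion 0.267). Tests are two-sided with Benjamini-Hochberg adjustment over 15425 genes. SE is the log2 difference divided by the square root of F. The tests were checked on simulated data (15046 genes; 3 false calls). Symbols come from the supplied table, which names 14692 of 24358 genes; 5389 genes were at 0 in every library. Shares were compared with exact permutation tests over samples, run for every list and not adjusted for their number. Lists whose test is not printed, such as fatty acid synthesis, also reached the smallest p possible, 0.1. Floors are 3 fragments over a group and cover counting error only.

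Alternatives were DESeq2 1.42.0, limma-voom (limma 3.58.1), other scaling and filters, a replicate block, covariates and left-out libraries. Same-numbered samples of GS_9d and YK_9d did not deviate together (r of -0.224 to -0.0475), so the numbers were not taken as pairs. The members and the 51 gene lists were chosen with earlier results of these data known. Genes named were the 15 largest differences in each direction (passing and named, mean log2 CPM 2 or more, breeds apart), the 10 smallest p, up to 5 passing members of each list or its 2 most expressed, 5 and 5 interaction genes and a fixed set such as LEP and FASN; genes of the rule that add no result are left out. Genes named outside it (TNFRSF12A, DMD, ITGA7, KITLG, PMEL, RARA, RDH5, FADS1, KRT15 and those said so in the text) were chosen after their values were seen. One gene that passed is not reported here.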

Additional observations from a re-analysis of the deposited data

Results flagged for a closer look

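The breed difference changed between 9 d and 80 d by the interaction test of edgeR's quasi-likelihood fit for 10 genes, given as the difference at 80 d minus that at 9 d on the log2 scale. HSP70.2, an inducible heat shock protein, changed by -5.01 ± 0.47 (adjusted p = 0.00188) and DNAJB1, its partner, by -3.62 ± 0.36 (0.00217). At 9 d they stood at 61.4, 63.7 and 85.8 and 73.3, 86.7 and 112 CPM in YK_9d and at 66.4, 61.4 and 58.3 and 70.1, 88.2 and 72.6 in GS_9d, where the breeds overlap. Reads of HSP70.2 may have been split with its near-identical copies. MARCO, a scavenger receptor of macrophages, had a fitted change of -12.1 (0.00956) that depends on all GS_80d libraries being at 0 and is no bound; at 9 d it read 3.81, 5.61 and 3.51 CPM in YK_9d and 9.74, 8.53 and 2.31 in GS_9d.

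CLMP, a cell adhesion protein, changed by 2.64 ± 0.32 (adjusted p = 0.00956), ACLY, ATP citrate lyase, by 2.17 ± 0.32 (0.041) and GNLY by -5.45 ± 0.81 (0.0455). LBR changed by 2.42 ± 0.33 (0.0202) and EPSTI1 by -6.09 ± 0.91 (0.0455). RASD1, a small GTPase induced by glucocorticoids, changed by -3.46 ± 0.50 (0.0329) and RGS2, which dampens G protein signals, by -2.26 ± 0.36 (0.0493); both were chosen after their values were seen. At 9 d the differences of ACLY, CLMP and RASD1 were 0.27 ± 0.23, -0.24 ± 0.22 and 0.31 ± 0.34, while RGS2 was at 9.04, 14.2 and 16.5 CPM in YK_9d and 28.2, 30.3 and 26.2 in GS_9d (1.09 ± 0.25, adjusted p = 0.0664). Groups of 3 libraries are too small to test a single library as an outlier.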

How the results depend on the processing

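The calls at 9 d numbered 157 with DESeq2's size factors in edgeR, 120 with limma-voom, 143 without a filter, 173 on values divided by units per fragment and 140 with muscle transcripts as covariate, but 922 with DESeq2, 29 in a fit of the 6 libraries alone, 49 with a replicate block, 11 without YK_9d replicates 2 and 3, 39 without the libraries with muscle transcripts and 0 with the skin covariate (edgeR; 1058 with an unadjusted p under 0.05). Leaving out 1 library gave 5 (YK_9d replicate 2) to 284 (YK_9d replicate 3). At 80 d the 944 calls became 2277 with DESeq2, 290 without the muscle libraries, 476 with the muscle covariate and 255 to 916 without 1 library. The 10 interaction calls became 388 with DESeq2, 6 with limma-voom, 2 with the replicate block, 4 without the skin libraries, 0 with the skin covariate (edgeR) and 5 to 90 without 1 library. The cause was not tested. The skin share differed by -0.0171 to -0.00585 percentage points without 1 library, and the muscle share by -0.132 to 0.861, reversed without GS_9d replicate 3. Reversed single genes were ACTG2 at 9 d (0.24, skin covariate), SCD at 9 d (-0.44 without the muscle libraries, -0.0132 to 1.19 without 1 library, reversed without GS_9d replicate 3), ACTA1 at 9 d (-0.96 with the block, -6.44 with the skin covariate, -4.14 to 10.1 without 1 library, reversed without GS_9d replicate 3), MARCO at 9 d (-0.31), RASD1 at 9 d (-0.19), HSP70.2 at 9 d (0.80) and DNAJB1 at 9 d (0.73), the last 4 with the skin covariate, and the last 2 also without the skin libraries (0.0134 and 0.0684). With the replicate block, 43 of the 157 calls passed. All 157 kept their sign, which says little where the breeds do not overlap.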
